A study of Homo sapiens with 24 samples.

Results

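Intermediate filament genes of neural cells were examined in RNA of 3D aggregates of LUHMES cells exposed to rotenone. The 8 genes were NEFL, NEFM, NEFH, INA, PRPH, VIM, NES and GFAP, and they were chosen by name, as the array probes whose RefSeq accession belongs to one of these genes. This gave 11 probes of the 48316 probes and 8 genes of the 21239 genes that were tested. NEFH, NES and GFAP had 2 probes each and the other genes had 1. LUHMES is a conditionally immortalized human mesencephalic cell line with a tetracycline-controlled v-myc, which differentiates into neurons of dopaminergic type, so that all samples are of 1 cell line. Rotenone inhibits complex I of the respiratory chain. Aggregates were exposed on day 7 of differentiation to rotenone, at 50 nM over 12 h or 24 h and at 100 nM over 24 h, or to DMSO, the vehicle, in the amount of the 100 nM dose. Collection followed at once, on day 8, or on day 15, when the aggregates had recovered for 7 days without the compound. These 8 groups were measured with 3 single-color arrays each. The 3 samples of a condition were wells, so that p-values measure the spread between these wells.

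The 24 arrays lay on 3 slides, with 1 array of each group on each slide and the replicate number equal to the slide number. Of the spots, 67.3% to 82.4% were well above background on slide 1, which had been repeated, 53.6% to 60.8% on slide 2 and 50.9% to 62.4% on slide 3, and slide 1 was therefore corrected for. The position of a group was identical on the 3 slides, and position and group cannot be told apart. For replicate 1 of day 15 DMSO, the name of the scan reads 12 h on day 15 without DMSO, and its group rests on the label. The calls between the days in DMSO and against day 15 DMSO are therefore also given without it. Signals are normalized log2 intensities, on which a step of 1 is a doubling. A gene was called where the adjusted p of limma was under 0.05, with adjustment over all genes. Signals of different probes are not compared with each other, since probes differ in brightness.

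Intermediate filaments are rope-like polymers of the cytoskeleton. In neurons, the neurofilament light, medium and heavy chains (NEFL, NEFM, NEFH) co-assemble with α-internexin (INA) and, in some neurons, with peripherin (PRPH), fill the axon and set its caliber. The heavy chain is known to appear late in neuronal maturation and carries the longest phosphorylated tail, whereas α-internexin appears early. Vimentin (VIM) and nestin (NES) build the filaments of neural progenitors, and GFAP is the filament of astrocytes. Released neurofilament light chain is used as a marker of axonal damage.

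Promoters are shown for INA, PRPH and VIM, on which the comparisons below turn most. The letters are the 250 bases before the annotated gene start, 5′ to 3′ on the strand of the gene, from RefSeq (GRCh38.p14), and the table used here held 4 of the 8 genes. Capitals mark motif matches on either strand, of which none overlapped. The motifs searched were the TATA box in the form TATAAA, the CCAAT box, and the GC box, whose core is GGGCGG.
INA (chr10:103276888-103277137, plus strand): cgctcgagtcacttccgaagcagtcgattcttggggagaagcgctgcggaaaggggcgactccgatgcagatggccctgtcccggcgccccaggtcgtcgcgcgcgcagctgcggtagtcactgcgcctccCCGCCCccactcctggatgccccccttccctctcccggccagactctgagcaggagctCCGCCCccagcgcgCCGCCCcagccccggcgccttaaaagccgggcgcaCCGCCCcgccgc
PRPH (chr12:49294897-49295146, plus strand): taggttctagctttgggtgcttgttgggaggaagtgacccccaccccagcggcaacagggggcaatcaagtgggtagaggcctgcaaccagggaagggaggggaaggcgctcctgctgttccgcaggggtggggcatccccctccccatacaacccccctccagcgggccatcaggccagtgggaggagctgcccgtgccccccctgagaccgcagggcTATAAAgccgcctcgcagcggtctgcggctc
VIM (chr10:17227991-17228240, plus strand): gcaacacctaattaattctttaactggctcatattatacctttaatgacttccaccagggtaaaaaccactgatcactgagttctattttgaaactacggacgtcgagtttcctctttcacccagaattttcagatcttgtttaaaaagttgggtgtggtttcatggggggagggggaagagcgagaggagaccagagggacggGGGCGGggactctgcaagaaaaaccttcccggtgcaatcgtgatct
The INA window held 4 copies of the GC box, all on the strand opposite to that printed, and its GC content was 72.8%. The PRPH window held the TATA motif, which began 31 bases before the gene start, and no GC box, at 66.8% GC. The VIM window held 1 GC box, 46 bases before the start, at 46% GC. The CCAAT motif was found in none of the 3 windows. Among 35116 promoters of the same length, 10.7% held the TATA motif, 32% the CCAAT motif and 42.6% the GC box. These matches describe the letters of the windows and were not measured as binding sites.

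All probes of 7 of the 8 genes were well above background on 24 of 24 arrays, and no spot of any member was saturated or carried an outlier flag. The exception was GFAP, whose probes were well above background on 0 and on 1 of 24 arrays, so that no fold change is given for it. Among other astrocyte markers, 0 of 7 were well above background on every array, but each was on some, from 8 to 23 of 24 arrays. Their summed linear signal was between 149 and 286 on all arrays. All 10 neuron markers were well above background on every array, with summed signals between 154112 and 207193. Of 10 dopaminergic markers, 7 were detected on every array, and between the days in DMSO 3 of the 10 rose and 2 fell (list median 0.15), where 10.1% of all genes rose and 13.2% fell. Those that fell were TH, the rate-limiting enzyme of dopamine synthesis, and SLC6A3, the dopamine transporter, at log2 changes of -2.94 and -2.07, and those that rose were NR4A2 and LMX1B, transcription factors of dopaminergic neurons, and KCNJ6, a potassium channel, at 1.57, 0.74 and 1.16. Without day 15 DMSO replicate 1, LMX1B was not called (0.63, adjusted p = 0.15). Neuron markers were thus present on every array, and the astrocyte filament was not detected.

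**Figure D1:**
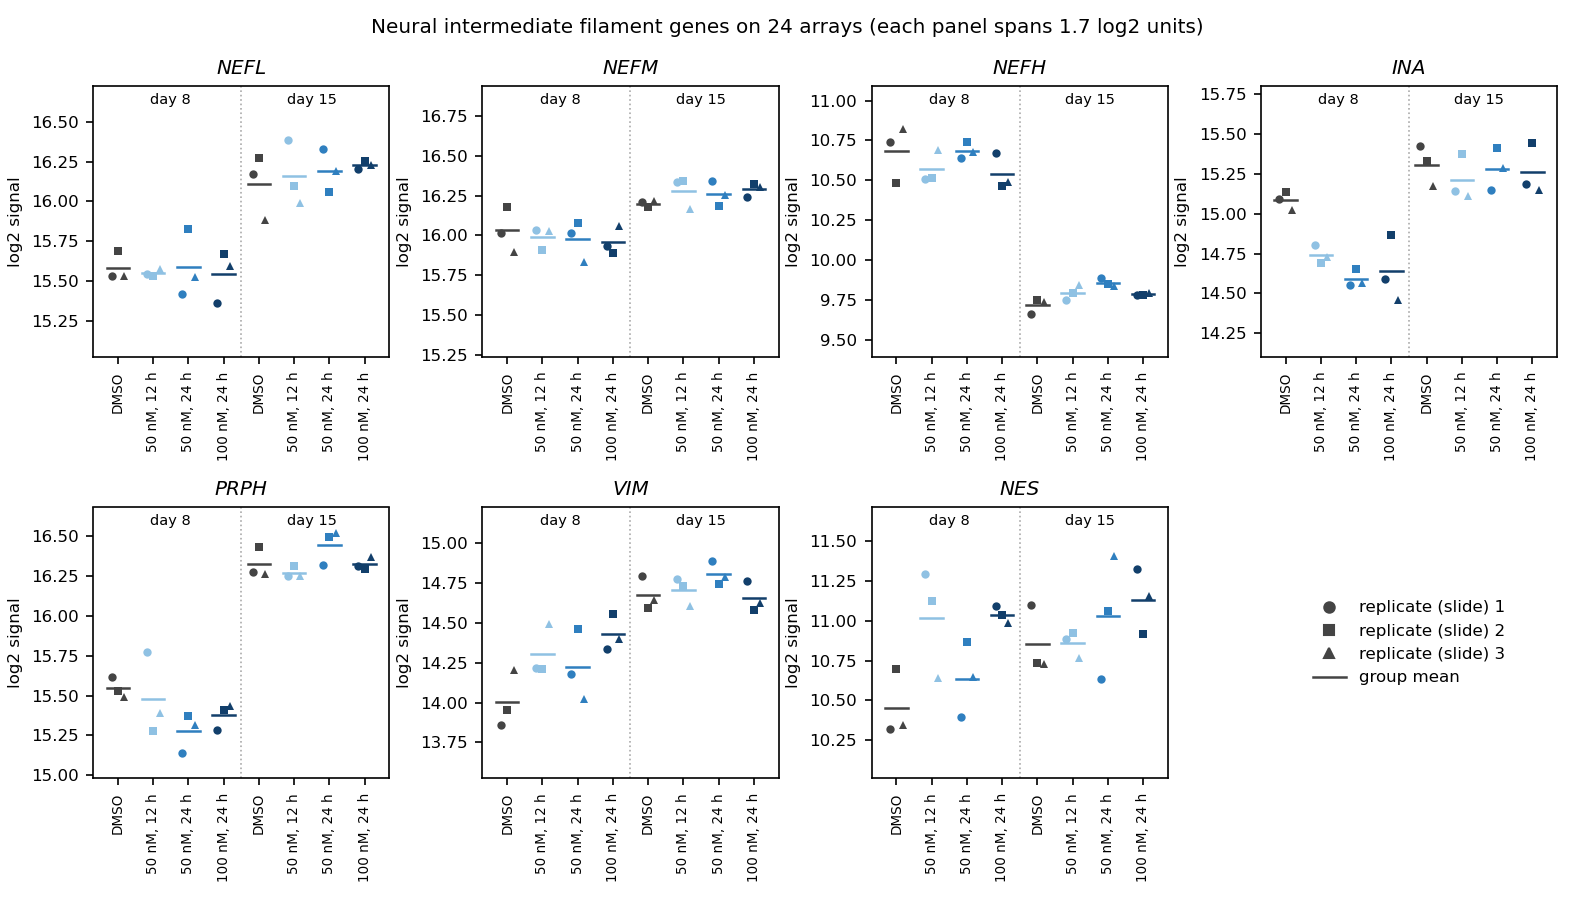
Normalized log2 signal of the 7 detected genes on every array, by group, with marker shape for the replicate (slide) and a line for the group mean; every panel spans 1.7 log2 units. NEFH was lower on all 12 arrays of day 15 (9.66 to 9.89) than on all 12 of day 8 (10.46 to 10.82), and INA was lower on the 9 rotenone arrays of day 8 than on the 3 DMSO arrays.

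The first question was how the filament genes changed with age of the culture, in aggregates that had received DMSO only. The light chain, peripherin and vimentin rose from day 8 to day 15 and the heavy chain fell. This made 4 of 8 genes called, of which 3 were higher and 1 lower, where 23.2% of all genes were called (10.1% higher, 13.2% lower). The median change of the 7 detected genes was 0.40 on the log2 scale, and that of all genes was -0.04.

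NEFH, the heavy chain, went against its partners. Its log2 signal was 10.74, 10.48 and 10.82 in day 8 DMSO and 9.66, 9.75 and 9.74 in day 15 DMSO. The groups were far apart, and the log2 change was -0.97 (SE 0.09, adjusted p = 9.7e-08), a decrease of the signal to 0.512-fold. Both probes of NEFH gave this result, with changes of -1.06 (SE 0.15, adjusted p = 5.1e-05) and -0.87 (SE 0.13, adjusted p = 7.9e-05). Within slides the change was -1.05, -0.71 and -1.10 before the correction of slide 1.

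NEFL, the light chain and the backbone of the filament, had log2 signals of 15.53, 15.69 and 15.53 on day 8 and 16.17, 16.27 and 15.88 on day 15 in DMSO. The day 15 values all lay higher, and the change was 0.52 (SE 0.13, adjusted p = 0.0048), a 1.44-fold rise. On the same arrays, the log2 ratio of NEFH to NEFL, formed after the values had been seen, fell by 1.49. An exact permutation test of 3 against 3 arrays gave a two-sided p = 0.1, the smallest this design allows. NEFH lay lower and NEFL higher on every day 15 array, so this p-value was fixed beforehand and adds nothing to the 2 calls. The fall of the ratio lay between 1.47 and 1.65 under the 4 ways of scaling that were tried. Without day 15 DMSO replicate 1, the ratio changed by -1.43. NEFM, the medium chain, had 16.02, 16.18 and 15.90 on day 8 and 16.21, 16.18 and 16.21 on day 15, which overlapped at 16.18, and its change of 0.17 (SE 0.09, adjusted p = 0.19) did not pass the test.

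PRPH, a filament protein of peripheral and some central neurons, showed the largest rise of the members in DMSO. Its log2 signal was 15.61, 15.53 and 15.49 on day 8 and 16.27, 16.43 and 16.26 on day 15. No day 15 value came near those of day 8, and the change was 0.78 (SE 0.11, adjusted p = 2.1e-05), a 1.72-fold rise. INA had 15.10, 15.14 and 15.02 on day 8 and 15.42, 15.33 and 15.17 on day 15. These groups did not overlap, but the change of 0.22 (SE 0.11, adjusted p = 0.17) was not called. It was called under both scalings to the 75th percentile, at 0.33 (adjusted p = 0.017) and, with the processed signal of the scanner software, 0.30 (adjusted p = 0.01), where the median of all genes was 0.15.

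VIM, a progenitor filament, rose too. Its log2 signal was 13.86, 13.95 and 14.21 on day 8 and 14.79, 14.60 and 14.64 on day 15, with no overlap and a change of 0.67 (SE 0.12, adjusted p = 0.00033), 1.59-fold. NES, the other progenitor filament, had 10.32, 10.69 and 10.34 on day 8 and 11.10, 10.73 and 10.73 on day 15. Its lowest day 15 array lay just above the highest of day 8, and the change of 0.40 (SE 0.19, adjusted p = 0.15) did not pass. In all, groups did not overlap for 6 of 8 members, where 40% of all genes did not overlap. Among 10 markers of progenitors and of cycling cells, 5 were lower on day 15 in DMSO and 0 were higher, where 13.2% and 10.1% of all genes were. Of these markers, TOP2A, a topoisomerase of dividing cells, changed by -2.62 (adjusted p = 0.00012). The summed signal of this list was 603 to 917 on day 8 and 405 to 475 on day 15, SOX2 was well above background on no array, 3 of the 5 calls were kept without day 15 DMSO replicate 1, and the part of these cells in the change of VIM was not tested. In RNA of whole aggregates, fewer cells of a type and less RNA per cell cannot be told apart.

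Without day 15 DMSO replicate 1, the same 4 members were called between the days, with changes of -0.94 (NEFH), 0.49 (NEFL), 0.80 (PRPH) and 0.61 (VIM). With slides 2 and 3 only, 2 members were called, NEFH and PRPH, and the adjusted p was 0.1 for NEFL and 0.09 for VIM.

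The same comparison of days within each rotenone exposure was added after the values had been seen. It shares no array with the DMSO comparison. After 12 h of 50 nM, 6 of 8 genes were called (28.2% of all genes), after 24 h of 50 nM also 6 (28.8%), and after 24 h of 100 nM 5 (30.6%). NEFH fell in each, by 0.78, 0.83 and 0.76 on the log2 scale. PRPH rose by 0.79, 1.17 and 0.95, and NEFL by 0.61, 0.60 and 0.69. NEFM, not called in DMSO, rose by 0.29, 0.28 and 0.33 (adjusted p = 0.017, 0.02 and 0.0068). INA rose by 0.47, 0.69 and 0.62 (adjusted p = 0.0034, 8.6e-05 and 0.00026). VIM rose by 0.40 and 0.59 after the 50 nM exposures, and after 100 nM its change was 0.23 (adjusted p = 0.16). NES was not called in any of them, at -0.16, 0.39 and 0.09. Within each of these exposures, groups did not overlap for 6 of 8 members, where 41.6%, 42.4% and 39.8% of all genes did not overlap. Over all exposures, the 12 arrays of day 8 and the 12 arrays of day 15 did not overlap for NEFL, NEFH, PRPH and VIM. The share of all genes was not computed for this split, so whether these members stand out cannot be said. For PRPH, the day 8 arrays spanned 15.14 to 15.77 (median 15.40) and the day 15 arrays 16.25 to 16.52 (median 16.32).

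**Figure D2:**
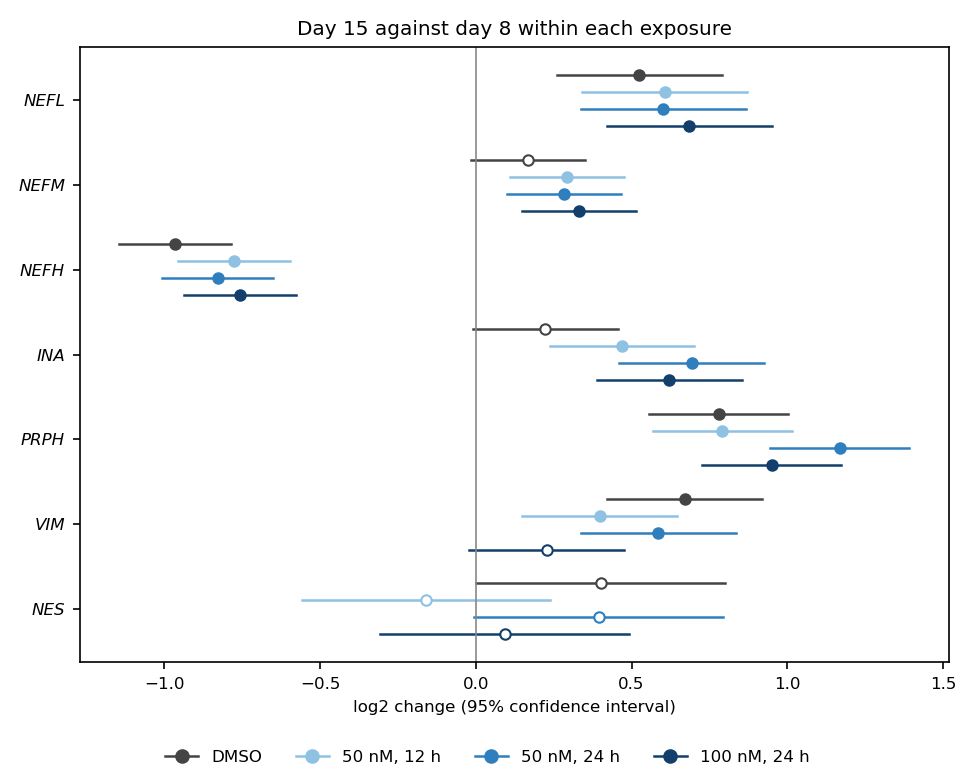
Log2 change from day 8 to day 15 within each exposure, with 95% confidence intervals from the fit of all 24 arrays; filled points passed an adjusted p of 0.05. NEFH lay between -0.97 and -0.76 in the 4 exposures, and PRPH between 0.78 and 1.17.

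The second question was what rotenone did at once, on day 8. The 3 exposures were each compared with the same 3 DMSO arrays. At 100 nM for 24 h, α-internexin fell and vimentin rose, and the 3 neurofilament chains, at log2 changes of -0.14 to -0.04, did not pass. These were 2 of 8 genes called, where 9.48% of all genes were called, and at a fold change over 1.5 as well it was 0 of 8 against 3.45%. The median change of the 7 detected genes was -0.07 and that of all genes -0.02.

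INA had log2 signals of 15.10, 15.14 and 15.02 in DMSO and 14.59, 14.87 and 14.46 at 100 nM for 24 h. All 3 exposed arrays lay below all DMSO arrays, and the change was -0.45 (SE 0.11, adjusted p = 0.014), a decrease to 0.734-fold. At 50 nM for 24 h the values were 14.55, 14.65 and 14.56, at a change of -0.50 (SE 0.11, adjusted p = 0.0083), and INA was the 1 of 8 genes called there, where 8.02% of all genes were called. At 50 nM for 12 h they were 14.80, 14.69 and 14.73, again all below DMSO, and the change of -0.34 (SE 0.11, adjusted p = 0.083) was not called, whereas with the replicate as a block in place of the correction of slide 1 it was -0.35 (adjusted p = 0.03). There, 0 of 8 genes were called (5.52% of all genes); 3 of 8, INA, NES and VIM, had an unadjusted p under 0.05 in limma, as had 16.8% of all genes. The fall of INA was seen on each of the 3 slides for every exposure, at -0.49, -0.26 and -0.57 for 100 nM before the correction of slide 1.

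The size of the fall of INA depended on the scaling. With the 75th percentile of each array set equal in place of quantile normalization, the change was -0.18 at 100 nM (adjusted p = 0.34) and -0.19 at 50 nM for 24 h (adjusted p = 0.3). With the processed signal of the scanner software in the same scaling it was -0.19 in both (adjusted p = 0.16 in each), while the median of all genes shifted by 0.10 and 0.08, so that INA lay 0.29 and 0.27 below that median. A ratio to another gene of the same array does not depend on a factor common to that array, and such ratios were formed after the values had been seen. The log2 ratio of INA to NEFL fell by 0.41 after 100 nM, 0.50 after 24 h of 50 nM and 0.31 after 12 h of 50 nM (exact permutation tests of 3 against 3 arrays, two-sided p = 0.1 in each, the smallest the design allows). Under the 75th percentile scaling these falls were 0.38, 0.48 and 0.29, and with the processed signal 0.37, 0.43 and 0.24. Without the correction of slide 1 they were 0.40, 0.50 and 0.31, with p = 0.2, 0.1 and 0.3 in the same exact test. INA was paired after its fall had been seen, so these p-values are no independent support. The ratio also moves with NEFL, which was higher at 100 nM under the 75th percentile scaling, as given below. It therefore does not show that INA alone fell.

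VIM moved the other way. Its log2 signal was 13.86, 13.95 and 14.21 in DMSO and 14.34, 14.55 and 14.40 at 100 nM for 24 h, where the lowest exposed array lay above the highest DMSO array. The change was 0.42 (SE 0.12, adjusted p = 0.028), a 1.34-fold rise, and it was 0.62 and 0.60 under the scalings to the 75th percentile. At 50 nM for 24 h the values of 14.18, 14.46 and 14.02 overlapped DMSO, at 0.21 (SE 0.12, adjusted p = 0.35), which became 0.45 (adjusted p = 0.041) and 0.44 (adjusted p = 0.047) under the scalings to the 75th percentile. At 50 nM for 12 h they were 14.22, 14.21 and 14.49, all above DMSO, at 0.30 (SE 0.12, adjusted p = 0.17). The log2 ratio of VIM to INA rose by 0.87, 0.71 and 0.65 in the same order (exact permutation tests, two-sided p = 0.1 in each). This ratio did not overlap DMSO in any exposure under any of the 4 scalings. The pair was formed after both changes had been seen, so neither the p-values nor the lack of overlap is independent support. At 100 nM and at 50 nM for 12 h, VIM lay above and INA below all DMSO arrays, which fixed the outcome of the test.

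The calls at 100 nM depended on single arrays and on taking the slide into account. Leaving out day 8 DMSO replicate 1 or 100 nM replicate 2 left INA called and not VIM, and leaving out 100 nM replicate 1 left VIM and not INA. Without DMSO replicate 2 only NES was called, and without 100 nM replicate 3 none of the 8. With neither the correction nor a slide term, INA changed by -0.44 (adjusted p = 0.6) and VIM by 0.42 (adjusted p = 0.11), and with the replicate as a block in place of the correction both were called (adjusted p = 0.0047 and 0.046).

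NES had the largest standard error of the 7 detected genes. Its log2 signal was 10.32, 10.69 and 10.34 in DMSO and 11.10, 11.04 and 10.98 at 100 nM for 24 h, which did not overlap, and the change of 0.59 (SE 0.19, adjusted p = 0.061) stayed just outside the threshold. One probe of NES gave 0.63 (SE 0.17, adjusted p = 0.045 over all probes) and the other 0.55 (SE 0.25, adjusted p = 0.32). Under the scalings to the 75th percentile NES was called at 100 nM, at 0.60 (adjusted p = 0.032) and 0.64 (adjusted p = 0.02). At 50 nM for 12 h the values were 11.29, 11.12 and 10.64, the lowest within DMSO (change 0.57, SE 0.19, adjusted p = 0.099), and at 50 nM for 24 h they were 10.40, 10.87 and 10.65 (0.19, SE 0.19, adjusted p = 0.71). Of the progenitor and cycling markers, 0 of 10 rose on day 8 at any exposure. At 100 nM 1 of them fell, HES5, a Notch target, at -0.73 (adjusted p = 0.0014), where 5.41% of all genes fell and 4.07% rose. The summed signal of the list was 432 to 612 at 100 nM against 603 to 917 in DMSO.

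The 3 neurofilament chains and peripherin did not pass the test at any exposure on day 8. NEFL, NEFM and PRPH lay at percentiles 99.9, 100 and 99.9 of signal among genes, where quantile normalization sets values by rank. Before the correction of slide 1, NEFM had the same value, 16.292, on replicate 1 of DMSO and of 50 nM for 12 h. Whether this narrowed their changes and intervals was not tested. NEFL was 15.53, 15.69 and 15.53 in DMSO and 15.36, 15.67 and 15.60 at 100 nM, with a change of -0.04 (95% confidence interval -0.31 to 0.22). NEFM changed by -0.07 (-0.25 to 0.11) and NEFH by -0.14 (-0.32 to 0.04). The probes of NEFH pointed in opposite directions at this dose, at -0.37 (adjusted p = 0.22) and 0.09 (adjusted p = 0.9). Signs of this size turned with the scaling: under the scaling to the 75th percentile NEFL changed by 0.20 and NEFM by 0.12. PRPH had 15.28, 15.41 and 15.44 at 100 nM, all below the 15.49 to 15.61 of DMSO, at a change of -0.17 (-0.39 to 0.05, adjusted p = 0.43), which was 0.07 under the scaling to the 75th percentile. PRPH changed at 50 nM for 24 h by -0.27 (-0.49 to -0.05, adjusted p = 0.15), and by 0.01 under the scaling to the 75th percentile. Groups did not overlap for 4 of 8 members at 100 nM (INA, PRPH, VIM and NES), where 28.5% of all genes did not overlap, for 2 of 8 after 24 h of 50 nM (INA and PRPH, 28.1%) and for 2 of 8 after 12 h of 50 nM (INA and VIM, 23.6%).

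**Figure D3:**
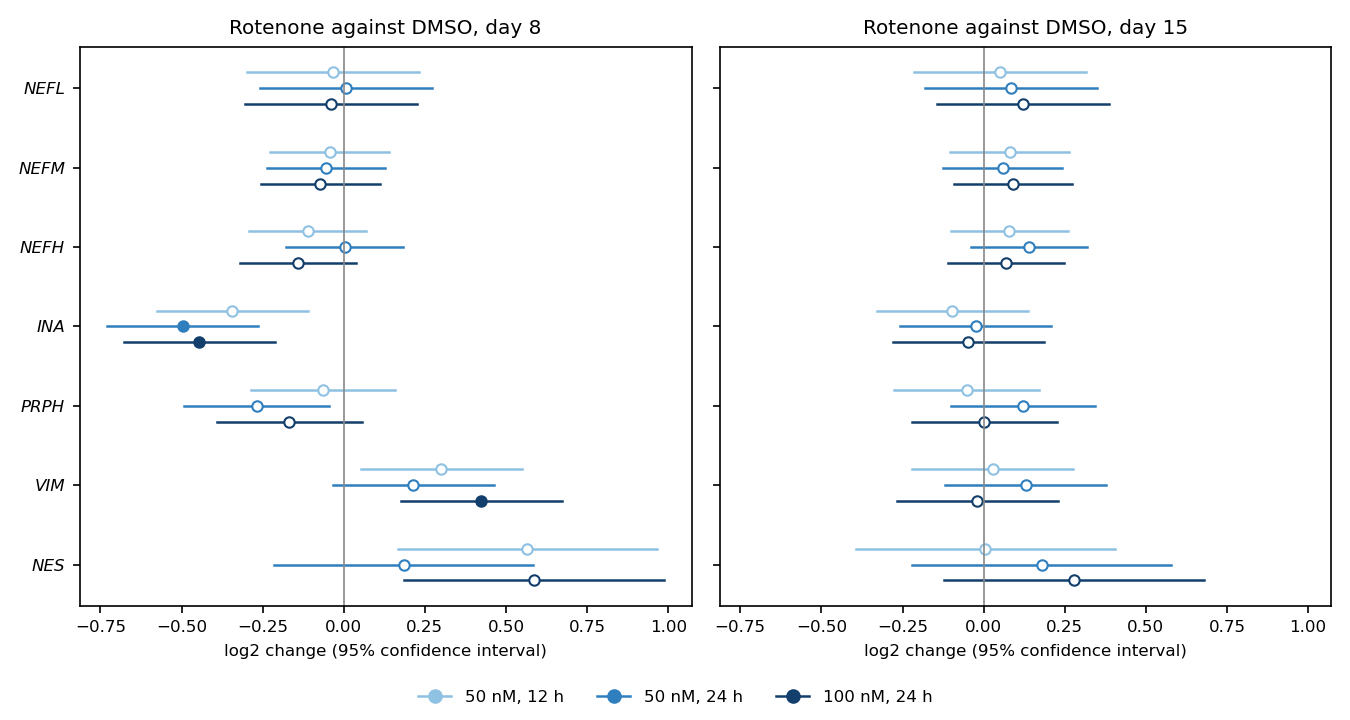
Log2 change of each rotenone exposure against DMSO of the same day, with 95% confidence intervals from the fit of all 24 arrays; filled points passed an adjusted p of 0.05. On day 8, INA lay between -0.50 and -0.34 and VIM between 0.21 and 0.42; on day 15 no member passed.

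Neither dose nor time on day 8 gave a call among the filament genes. For 100 nM against 50 nM at 24 h, limma called 0 of 8 members and 0 of all genes, that is 0%, with 1 member, NES, and 4.17% of all genes at an unadjusted p under 0.05. The change of INA between the doses was 0.05 (95% confidence interval -0.18 to 0.28), that of VIM 0.21 (-0.04 to 0.46) and that of NES 0.40 (0.00 to 0.80). For 24 h against 12 h of 50 nM, 0 of 8 were called (0.537% of all genes), and 0 of 8 had an unadjusted p under 0.05 in limma (10.9% of all genes). INA was lower at 24 h on all 3 arrays than at 12 h, at -0.15 (-0.38 to 0.08). It was the 1 of 8 members without overlap there, where 16.9% of all genes did not overlap.

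**Figure D4:**
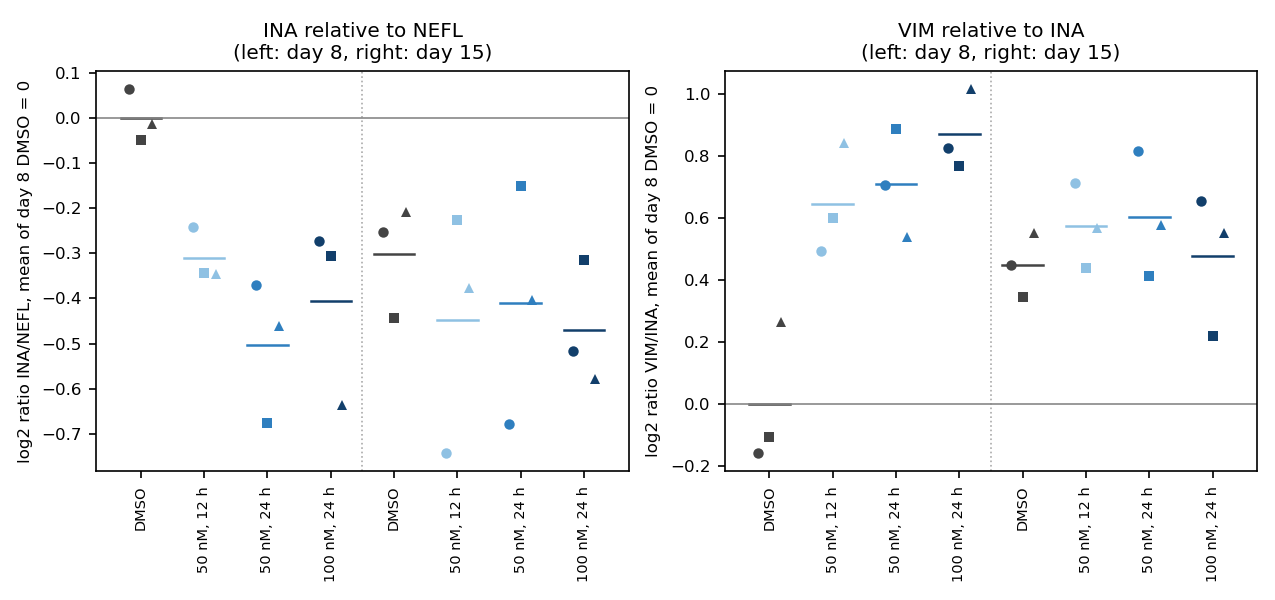
Log2 ratio of INA to NEFL and of VIM to INA on the same array, set to 0 at the mean of day 8 DMSO, by group, with marker shape for the replicate (circle 1, square 2, triangle 3) and a line for the group mean. On day 8 the exposed groups lay 0.31 to 0.50 lower for INA to NEFL and 0.65 to 0.87 higher for VIM to INA. Both pairs were formed after the values had been seen.

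The third question was what remained after wash-out. On day 15, limma called 0 of 8 members after each of the 3 exposures, as it called 0% of all genes in each of these comparisons. At an unadjusted p under 0.05 it was also 0 of 8 members, against 7.21% of all genes after 100 nM, 3.28% after 24 h of 50 nM and 3.47% after 12 h of 50 nM. Groups did not overlap for NEFM and NEFH after 100 nM (7.84% of all genes), for NEFH after 24 h of 50 nM (7.15%) and for no member after 12 h of 50 nM (7.43%). The probes of NEFH differed here, with changes of -0.07 and 0.21 after 100 nM and of 0.01 and 0.27 after 24 h of 50 nM. INA was 15.42, 15.33 and 15.17 in DMSO and 15.19, 15.44 and 15.15 after 100 nM, which overlapped, at a change of -0.05 (95% confidence interval -0.28 to 0.19). VIM was 14.79, 14.60 and 14.64 in DMSO and 14.77, 14.58 and 14.62 after 100 nM, at -0.02 (-0.27 to 0.23). NES was 11.32, 10.91 and 11.15 after 100 nM against 11.10, 10.73 and 10.73 in DMSO, at 0.28 (-0.12 to 0.68). The change of NEFL was 0.12 (-0.14 to 0.39), of NEFM 0.09 (-0.09 to 0.27), of NEFH 0.07 (-0.11 to 0.25) and of PRPH 0.00 (-0.22 to 0.23). Without day 15 DMSO replicate 1, 0 of 8 members were called in each comparison too, and INA changed by 0.01 and VIM by 0.04 after 100 nM.

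Whether the response to 100 nM differed between the days was tested as an interaction. None of the 8 members was called (2.44% of all genes). In limma, the response of INA on day 15 minus that on day 8 was 0.40 (SE 0.16, adjusted p = 0.23) and that of VIM -0.44 (SE 0.17, adjusted p = 0.2), and these were the 2 of 8 members with an unadjusted p under 0.05, as had 14.4% of all genes. The difference had the same sign on all 3 slides for both genes, and without day 15 DMSO replicate 1 it was 0.46 for INA (adjusted p = 0.21) and -0.39 for VIM (adjusted p = 0.35). Under the scaling to the 75th percentile it was 0.09 for INA and -0.69 for VIM, where the median of all genes was 0.14.

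Genes that bundle, phosphorylate, transport or degrade neurofilaments were examined as a list of 27, all of which were tested. On day 8 at 100 nM, 1 rose and 0 fell, where 4.07% and 5.41% of all genes did, with a list median of 0.00. The gene that rose was HSPB1, a small heat shock protein that chaperones intermediate filaments, with means of 8.95 ± 0.10 in DMSO and 9.47 ± 0.16 (SD, n = 3) at 100 nM, at a change of 0.52 (SE 0.12, adjusted p = 0.012). After 24 h of 50 nM, HSPB1 rose by 0.54 (adjusted p = 0.01) and KLC1, a kinesin light chain, fell by 0.48 (adjusted p = 0.041). Of all genes, 3.66% rose and 4.36% fell after this exposure, and the list median was -0.11. After 12 h of 50 nM, GSK3B, a kinase, fell by 0.34 (adjusted p = 0.015) and no other of the 27 was called (5.52% of all genes). On day 15, 0 of 27 were called at any exposure, as were 0% of all genes. Of 18 alternatives, 13 kept the call of HSPB1 at 100 nM and 8 that of KLC1.

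With age in DMSO, 6 of the 27 rose and 1 fell, where 10.1% and 13.2% of all genes did, and the list median was 0.14. Without day 15 DMSO replicate 1, 5 of the 6 rises were kept and the fall was not. SYNM (synemin), HSPB1, CRYAB (αB-crystallin) and KIF5A, the kinesin that carries neurofilaments, rose by 0.75, 0.72, 1.40 and 0.67 (adjusted p = 0.00014, 0.00027, 0.0019 and 0.003). MTMR2, a lipid phosphatase that binds NEFL, fell by 0.35 (adjusted p = 0.022). The calls of HSPB1, CRYAB and KIF5A held under 18 of 18 alternatives, and that of MTMR2 under 10 of 18.

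Of other intermediate filaments, the 3 lamins were not called at 100 nM or 50 nM for 12 h on day 8. LMNA (lamin A/C) fell by 0.50 at 50 nM for 24 h (adjusted p = 0.0079), where 8.02% of all genes were called. Of 14 genes tested of the desmin group and the keratins, 2 fell at 100 nM on day 8, BFSP1 (-0.49, adjusted p = 0.0053) and KRT19 (-1.10, adjusted p = 0.035), and 0 rose. Of all genes, 5.41% fell and 4.07% rose there. For BFSP1 and KRT19, 16 and 11 of 18 alternatives kept the call. With age in DMSO, 4 of 14 rose and 3 fell, where 10.1% and 13.2% of all genes did, and without day 15 DMSO replicate 1 it was 2 of these 4 and 2 of these 3. KRT19, a keratin of simple epithelia, had the steepest change of these, from 12.55 ± 0.52 on day 8 to 7.42 ± 0.22 (SD, n = 3) on day 15, at -5.14 (SE 0.32, adjusted p = 8.1e-10). DES, the filament of muscle, rose by 2.07 (adjusted p = 0.00089).

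Some neuron markers fell on day 8 in both groups in which INA was called. At 100 nM, 3 of 10 fell and 0 rose, namely MAP2, a dendritic microtubule protein (-0.57, adjusted p = 0.0028), ELAVL4, a neuronal RNA-binding protein (-0.51, adjusted p = 0.0072), and SNAP25, a synaptic fusion protein (-0.30, adjusted p = 0.041), whose call was kept by 7 of 18 alternatives. Of all genes, 5.41% fell and 4.07% rose there. The list median was -0.19, and the summed signal of the list was 159532 to 169705 at 100 nM against 170366 to 197254 in DMSO. After 24 h of 50 nM, ELAVL4 (-0.71, adjusted p = 0.00065) and MAP2 (-0.49, adjusted p = 0.011) fell and 0 rose (list median -0.23). Of all genes, 4.36% fell and 3.66% rose after this exposure. After 12 h of 50 nM, limma called 0 of 10 neuron markers (5.52% of all genes), with a list median of -0.07. An unadjusted p under 0.05 in limma was reached by 4 of them and by 16.8% of all genes. Whether a smaller neuronal part of the RNA bears on the fall of INA was not tested. No marker was called among 7 of astrocytes, 5 tested of oligodendrocytes, 6 of mesenchymal cells and 5 tested of microglia at 100 nM on day 8. Of all genes, 9.48% were called there. Between the days in DMSO, OLIG1 and OLIG2, transcription factors of the oligodendrocyte lineage and of neural progenitors, both fell, also without day 15 DMSO replicate 1, OLIG1 at a log2 change of -5.16, and the summed signal of that list was 6631 to 7080 on day 8 and 281 to 388 on day 15.

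The genes whose pattern over the 24 arrays was most like that of a member were looked for among 12915 genes well above background on every array. Pearson's r was 0.988 for KRT19 with NEFH and 0.987 for AGPAT2 with NEFH. For INA it was 0.973 with ELAVL4 and 0.97 with ZNRF1, and for PRPH 0.982 with PLXNA4 and 0.981 with SLC18A3, the vesicular acetylcholine transporter. NEFL was most like CSPG5 (0.951) and FNDC4 (0.938), and NEFM most like MMD (0.903) and KCNA7 (0.896). VIM was most like PDLIM2 (0.906) and SCG2 (0.905), and NES most like LOC727751 (0.863) and MLST8 (0.841). These arrays share day and slide, and the step between the days is part of each value. Among the members, r over the 24 arrays was 0.906 between NEFL and PRPH and -0.941 between NEFH and PRPH, and after the group means were taken off it was 0.226 and -0.146. The pair with the highest r after this step was NEFL and VIM, at 0.47.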

How the data were processed

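Total RNA of 24 samples (8 groups of 3 wells) was hybridized to single-color Agilent 8x60K arrays. The deposited scanner files hold linear intensity per spot, read by the authors with Feature Extraction (11.5.1.1 on slides 1 and 3, 12.0.0.7 on slide 2, per the file headers). The authors' deposited table holds normalized log2 values, used here as an alternative. The genes examined and the gene lists were chosen with earlier results of these data known. Of 62976 spots per array, 58717 were not controls. The median signal was corrected for background (normexp, offset 0) and quantile normalized, slide 1 was adjusted against slides 2 and 3 with ComBat (groups as covariates), and 48316 probes were kept that on 3 arrays or more exceeded the 95th percentile of 308 negative control spots by a factor of 1.1. Probes were named by RefSeq accession (GRCh38.p14; 29393 of them named) and averaged into 21239 genes. One limma model (limma 3.58.1, R 4.3.3) of all 24 arrays had 16 residual degrees of freedom, with Benjamini-Hochberg adjustment over all genes. ComBat uses degrees of freedom that this fit does not take off. The fit was tested on simulated data. Replicate numbers pair samples by slide: before ComBat, deviations of 84 same-numbered pairs from their group means correlated at 0.171 or more (median 0.458), against a median of -0.354 in 168 other pairs. Alternatives were other background corrections, scalings and filters, no ComBat, the replicate as a block, fewer slides or groups in the fit, the brightest probe, the deposited values and leaving out each array. The genes named are the 8 members, the 2 genes most like each, and called genes of the lists, of which 1 is not reported here. The number of arrays limits the precision. Promoter windows were searched with Python 3.11.15.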

Additional observations from a re-analysis of the deposited data

Results flagged for a closer look

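PRPH after 50 nM rotenone for 24 h differed from DMSO with opposite signs on the 2 days, and neither change was called (adjusted p = 0.15 on day 8 and 1 on day 15). On day 8 its log2 change against DMSO was -0.27, lower on all 3 slides (-0.50, -0.15 and -0.17), and on day 15 it was 0.12, higher on all 3 slides (0.04, 0.06 and 0.26). The change on day 15 was higher than that on day 8 by 0.389 on the log2 scale, and this difference was not tested. Under the scaling to the 75th percentile the changes were 0.01 on day 8 and -0.03 on day 15. Without day 15 DMSO replicate 1, the change on day 15 was 0.10.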

How the results depend on the processing

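Over 1092 values of members under other settings, 1030 kept their direction and side of the threshold or were not called in either, 44 lost a call, 18 gained one and 0 called values changed sign. With single arrays left out, it was 570 of 588, with 15 lost and 3 gained. Values not called in either fit count as kept, and of these 53 changed sign under other settings and 46 with single arrays left out. The 2 calls at 100 nM on day 8 became 0 without ComBat, with slides 2 and 3 only and with only the compared groups in the fit, and ranged from 0 to 2 with single arrays left out. The 1 call at 50 nM for 24 h became 0 without ComBat and with slides 2 and 3 only. The count of 0 at 50 nM for 12 h became 2 with an offset of 50 (INA and NES), and 1 with the processed signal, the 75th percentile scaling, the brightest probe (NES in each), the filter on probes well above background or the deposited values (INA in each), and ranged from 0 to 1 with single arrays left out. With the replicate as a block in place of ComBat it was 1, INA at -0.35 (adjusted p = 0.03); this pairing kept INA and VIM called at 100 nM (adjusted p = 0.0047 and 0.046). Between the days, the 4 calls in DMSO became 2 with slides 2 and 3 only. The 6 after 50 nM for 12 h became 3 without ComBat and 2 with slides 2 and 3 only, the 6 after 50 nM for 24 h became 3 with the 75th percentile scaling and 3 with slides 2 and 3 only, and the 5 after 100 nM became 3 without ComBat. Fewer arrays were fitted with slides 2 and 3 only, with only the compared groups and with single arrays left out. The fit of slides 2 and 3 also had no ComBat. What changed the calls was not tested for any setting. Of called listed genes, CSF1R between the days after 50 nM for 12 h (-0.36) turned to 0.41 with the processed signal and 0.23 with the 75th percentile scaling, and STUB1 between the days after 50 nM for 24 h (0.22) to -0.015 with the processed signal.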
